A study of Homo sapiens with 4 samples.

Results

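Mitochondrial ribosomal proteins are the nuclear-encoded proteins of the ribosome that works inside mitochondria. Their genes were selected by name, as every gene whose symbol is MRPL or MRPS followed by a number and, where present, one of the letters A to C, and which is listed in all 4 deposited tables. This gave 54 of the 8568 genes listed in all 4 tables, each represented by 1 transcript. No gene of this name was listed in only some tables, and 24 further protein-coding genes of such a name in GENCODE release 44 were not analysed here. Of the 54 members, 32 carry a large subunit name (MRPL) and 22 a small subunit name (MRPS).

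The data are ribosome profiling libraries of HEK293T, a human embryonic kidney line, in which ribosome-protected fragments (RPFs) were sequenced and those of full length, 28 to 35 nt, were analysed. Untreated cells (2 replicates, A and B) were compared with cells given 500 µg/mL of the aminoglycoside G418 for 24 hr (2 replicates, A and B). The comparison asks which ribosomes pass a normal termination codon (NTC) when G418 is present. RPFs of a whole lysate combine the amount of an mRNA with the ribosomes on each copy, and fewer cells of a type and less RNA per cell cannot be told apart. With 2 libraries against 2, an exact permutation test of a single value cannot go below p = 0.333, so no such test was made, and p-values come from fits across all transcripts. The methods call the 2 replicates biological, and the error they give is the spread between those 2 libraries. Between 2440204 and 6082600 mRNA reads per library were counted, fewest in untreated replicate B. Of 8 genes used as markers of HEK293T, 7 were listed in all 4 tables (PAX2 was not listed), and of 7 markers of other cell types only COL1A1 was.

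The proteins of the mitochondrial ribosome are made in the cytosol by cytosolic ribosomes and are then imported into mitochondria, where they assemble with 2 mitochondrially encoded rRNAs and translate the few proteins of the respiratory chain that mitochondrial DNA encodes. The RPFs counted here are therefore from cytosolic ribosomes on the mRNAs of these proteins, and translation inside mitochondria was not measured by them. Aminoglycosides bind the decoding centre of the small ribosomal subunit and lower the accuracy of tRNA selection, so that a near-cognate tRNA can be accepted at a termination codon and the ribosome goes on into the 3′UTR until it meets the next in-frame termination codon (3′TC).

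Readthrough was expressed as the RRTS, the ribosome readthrough score. It takes the RPF density of the stretch from the NTC to the nearest 3′TC as a share of the RPF density in the coding sequence (CDS). The termination codon and the nucleotide after it, together 4 nt, differ widely among the members. UGA ended 24 of the members, UAA 18 and UAG 12. The termination regions of the members with the highest and the lowest RRTS in G418-treated cells are shown first, because the readthrough values below are read against them. Each sequence holds 15 coding nucleotides, the 4-nt termination codon in capitals and 11 nucleotides of 3′UTR, written as DNA of the mRNA strand and read from GENCODE 44 transcripts on hg38, the build that was also used for the deposited tables. The 5 highest members, in falling order of RRTS, were
MRPL53: gctgatactggtcgcTGACagcgccaaaga
MRPS2: atgagccattccctgTGATgttcactctcc
MRPL44: agcatcactgccagcTAGCcgccatggatg
MRPL3: tctattacatttgccTAACatctttggacg
MRPL27: ctggtagctatgcttTGATgtcctgttgag
The 5 lowest members were
MRPL19: tggctgcctgggccaTGAGaacacaaatca
MRPL49: acttggtctctgcccTGAAgcagggcactg
MRPS15: ctcaaagacagccaaTAAAttctgttcaat
MRPS16: tattcccatgtgtttTAAAagcctgaagtc
MRPL52: ccacttccaagtcaaTAAAaagcaactcct
Each of the 5 highest has a pyrimidine (C or T) directly after the termination codon, while each of the 5 lowest has a purine (A or G) there. The next member on either side has the opposite, MRPS31 with UAAG and MRPL2 with UGAU. Both sets of 5 were picked by the RRTS itself, so the contrast cannot stand for all members. In sums over members by 4-nt codon, codons with a pyrimidine lay above those with a purine for UAA and UGA in both G418 libraries. For UAG the order was the reverse. UAGA (0.2247 and 0.2237) and UAGG (0.3009 and 0.2355, 1 member) lay above UAGC (0.1924 and 0.1646) and UAGU (0.104 and 0.1299, 1 member). On hg38 the termination codon of MRPL53 lies at chr2:74472119-74472121 on the minus strand, that of MRPS2 at chr9:135504131-135504133 on the plus strand and that of MRPL52 at chr14:22834319-22834321 on the plus strand. For 53 of the 54 members the termination codon, the CDS length and the first 3′TC of the deposited table were equal to those of the GENCODE 44 transcript, the exception being MRPS22.

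Readthrough of the members rose with G418. Summed over all 54 members, the RRTS was 0.0183 and 0.0167 in the untreated libraries and 0.181 and 0.178 in the G418 libraries, which is 0.0175 ± 0.00115 against 0.179 ± 0.00243 (mean ± SD, n = 2 libraries each) and 10.3 times higher. These values rest on 122 and 45 reads before the first 3′TC in untreated cells and 1148 and 934 reads in G418-treated cells. Over the 6455 other transcripts with at least 128 mRNA reads in each condition, the same sum was 0.0190 ± 0.00134 in untreated and 0.154 ± 0.00529 in G418-treated cells. The RRTS of each G418 library exceeded that of each untreated library in 43 of the 54 members, which is 79.6%, beside 65.3% of all 6509 transcripts with that minimum of mRNA reads. The members are also more densely read, with a median CDS density of 145 and 142 RPKM in the untreated libraries beside 27.3 and 25.5 RPKM for the others, and the part of this in the difference of shares was not tested.

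By edgeR's quasi-likelihood test with Benjamini-Hochberg adjustment, 39 of 43 members tested rose and none fell, in a background where 82.6% of the 2827 transcripts tested rose and 0.0707% fell (82.7% in either direction). The conditions did not overlap, with G418 higher, in 41 of the 43, beside 93.7% of all tested. The test asked for at least 10 reads over the 4 libraries, which nearly all came from G418-treated cells, so the 43 members were partly chosen by being high there. The other 11 members held at most 9 reads over the 4 libraries. The fitted log2 fold changes of the 39 members lay between 1.92 (MRPL15) and 7.74 (MRPS7). Of the 39, 16 passed under every alternative that tested them, while MRPL13, MRPL15, MRPL24, MRPL41, MRPL50, MRPL52, MRPS12 and MRPS36 did not pass with DESeq2. The 4 members that did not pass the test were MRPS31, MRPS25, MRPS18C and MRPL18.

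The highest readthrough was that of MRPL53, a mitochondria-specific protein of the large subunit that ends in UGAC. Its RRTS was 0.0214 and 0.0512 in untreated cells and 0.719 and 0.631 in G418-treated cells, from 1 and 1 reads and 33 and 23 reads. MRPS2, the homolog of bacterial ribosomal protein uS2, ends in UGAU and had the most reads before the first 3′TC of any member. Its RRTS was 0.0283 and 0.0416 in untreated and 0.629 and 0.556 after G418, with a log2 fold change of 4.16 ± 0.29 (SE, edgeR adjusted p = 3.38e-43). Both G418 values of each of these genes were far above both untreated values.

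MRPL44, a mitochondria-specific large subunit protein with the fold of an RNase III, ends in UAGC and had an RRTS of 0.0425 and 0 in untreated and 0.542 and 0.551 in G418-treated cells. MRPL3, the homolog of bacterial uL3, had 0.0303 and 0.0203 against 0.404 and 0.539 and is the highest member that ends in UAA. MRPL27, the homolog of bacterial bL27, had 0.0261 and 0 against 0.457 and 0.456. In all 3 genes the conditions did not overlap. The pooled RRTS of the 5 highest members in G418-treated cells exceeded the median of other transcripts with the same 4-nt termination codon, which was 0.389 for UGAC, 0.329 for UGAU, 0.260 for UAGC and 0.224 for UAAC. These 5 were picked by this same value, so their place above the median follows largely from the choice. Over all 54 members, 23 lay above the median of their codon.

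The largest fitted rises belonged to members without a read before the first 3′TC in untreated cells, for which only a lower bound of the fold can be given, computed against 3 reads over both untreated libraries. MRPS7, the homolog of bacterial uS7, had 0 and 0 untreated reads against 34 and 25 in G418-treated cells and was at least 15.8-fold higher. MRPS23 had 11 and 13 reads after G418 and was at least 5.21-fold higher, and MRPS34 had 13 and 8 reads and was at least 4.94-fold higher. By the same bound MRPL38 was at least 3.65-fold, MRPS5 at least 3.54-fold, MRPL24 at least 2.82-fold and MRPS12 at least 2.63-fold higher, the last being the homolog of the bacterial decoding centre protein uS12.

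Among members that did have untreated reads, MRPL14 rose most. MRPL14 is the homolog of bacterial uL14 and ends in UGAG, and its RRTS was 0.00294 and 0 in untreated and 0.103 and 0.122 in G418-treated cells, from 1 and 0 reads and 45 and 47 reads. The ratio of the pooled values was 54.9, with an exact 95% interval for counting error of 9.61 to 2191. MRPL58, also known as ICT1, is a peptidyl-tRNA hydrolase that rescues stalled mitochondrial ribosomes and has become a large subunit protein. Its RRTS was 0.0128 and 0 against 0.297 and 0.305, a ratio of 34.5 (5.84 to 1396). MRPL55 had 0.0101 and 0.0253 against 0.490 and 0.357, a ratio of 29.6 (7.93 to 249.2). The wide intervals follow from the 1 or 2 untreated reads.

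MRPS31, a mitochondria-specific small subunit protein that ends in UAAG, did not pass the test. Its RRTS was 0.483 and 0.422 in untreated and 0.363 and 0.540 in G418-treated cells, from 14 and 4 reads and 9 and 10 reads, so the conditions overlapped. The fitted log2 fold change was -0.09 ± 0.55 (SE, edgeR adjusted p = 0.882), and the ratio of the pooled values had a 95% interval of 0.465 to 1.89. In untreated cells this one gene held 14 of the 122 and 4 of the 45 reads of all members. The median of other UAAG transcripts in G418-treated cells was 0.101. GENCODE 44 lists 4 pseudogenes named after MRPS31, and whether reads from such copies were placed on it was not tested. Its termination region reads
MRPS31: aacatacagttcaatTAAGaccatggaaat

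**Figure D1:**
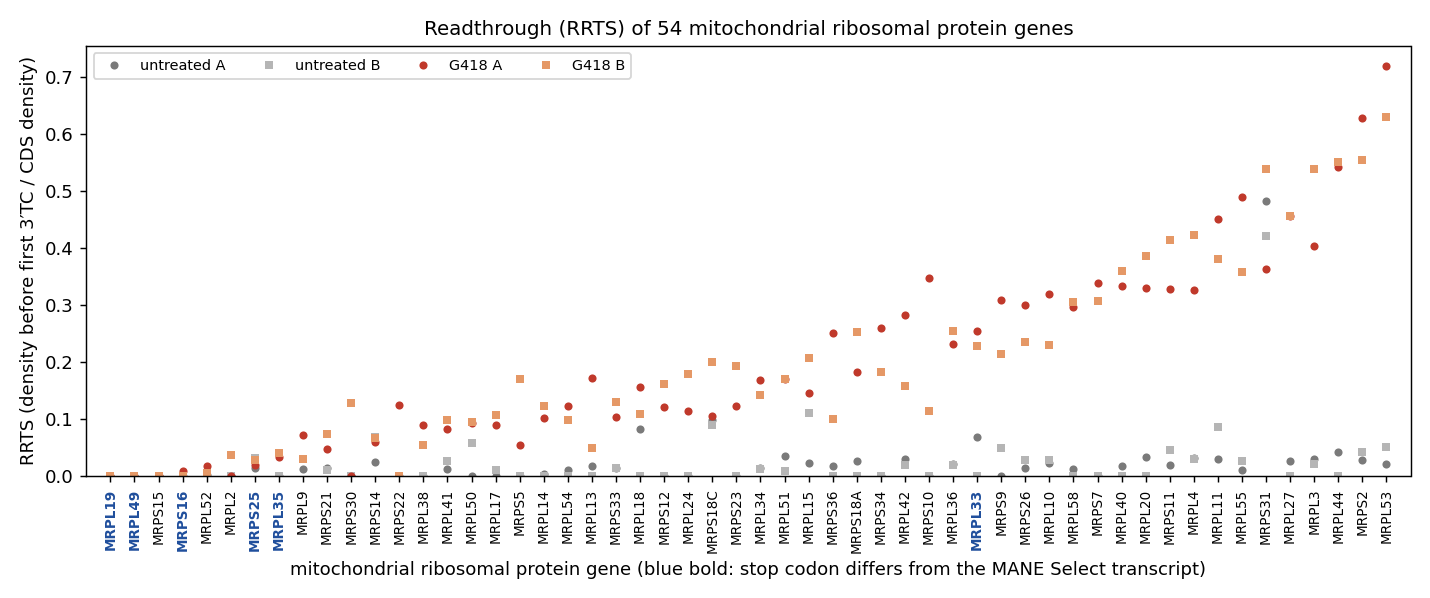
RRTS (density before the first in-frame 3′TC over CDS density, linear axis from 0) of the 54 mitochondrial ribosomal protein genes, 1 point per library, in order of the pooled G418 value. Untreated points (grey) lie near 0 for most genes and G418 points (red, orange) rise to 0.719 for MRPL53, while MRPS31 is high in all 4 libraries. Names in blue mark the 6 genes whose termination codon differs from that of the MANE Select transcript.

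At the low end, MRPL19, MRPL49 and MRPS15 had no read before the first 3′TC in any library. The reads of their CDS would allow an RRTS of up to 0.0834, 0.0619 and 0.0611 in G418-treated cells at a count of 0, taking 3 reads as the smallest detectable count. MRPS16 had 1 read in G418-treated cells where 17.9 would be reached at the summed RRTS of other UAAA transcripts, and MRPL52 had 7 and 2 reads where 63.8 would. MRPS25, with 2 and 2 untreated and 3 and 4 G418 reads, had an RRTS of 0.0131 and 0.0321 against 0.0193 and 0.0280, and its conditions overlapped. MRPS21 is the member with the densest CDS and still had an RRTS of only 0.0467 and 0.0735 after G418, although this was above its untreated 0.0136 and 0.0111 (log2 fold change 2.18 ± 0.36, SE, edgeR adjusted p = 1.51e-08).

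The termination codon of the transcript analysed was compared with that of the MANE Select transcript, the reference transcript that the RefSeq and GENCODE annotations agree on for a gene. It was the same in 48 of the 54 members and in 7600 of 8299 other transcripts (88.9% and 91.6%). The 6 members with another termination codon were MRPL19, MRPL33, MRPL35, MRPL49, MRPS16 and MRPS25, and 3 of them (MRPL19, MRPL49 and MRPS16) are among the 5 with the lowest RRTS. The protein encoded by the transcript analysed was 173 residues long for MRPL19 where that of the MANE Select transcript has 292, 99 against 166 for MRPL49, 99 against 137 for MRPS16 and 145 against 173 for MRPS25. Summed over these 6 members, the RRTS in G418-treated cells was 0.0609 and 0.0576, beside 0.190 and 0.188 for the 48 others. The same split existed outside the members, with 0.0372 and 0.0317 for 474 transcripts with another termination codon and 0.171 and 0.163 for 5817 with the MANE Select one. MRPL33, with 0.255 and 0.228 in the G418 libraries, held 39 of the 51 G418 reads of the 6. Without it, a choice made after seeing the data, the sum over the other 5 was 0.0161 and 0.0185. Transcript choice and termination context cannot be told apart for these genes.

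**Figure D2:**
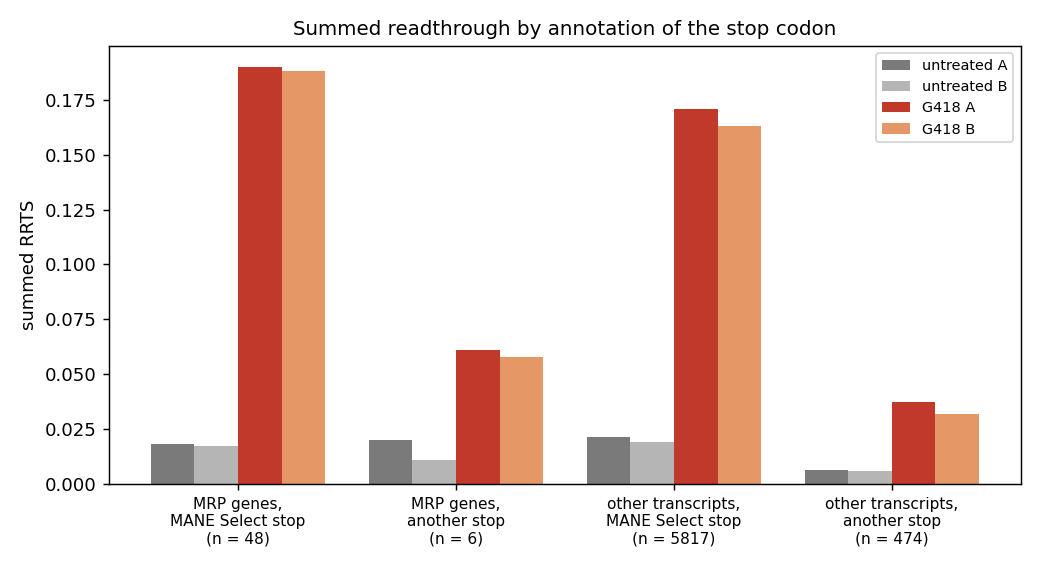
Summed RRTS (linear axis from 0) in each of the 4 libraries for mitochondrial ribosomal protein (MRP) genes and for other transcripts with at least 128 mRNA reads in each condition, split by whether the termination codon is that of the MANE Select transcript. Each bar is 1 library, and in both sets the G418 bars are lower where the termination codon is another one (0.0609 and 0.0576 for the 6 MRP genes).

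By termination codon, the members that end in UAA had a summed RRTS of 0.111 and 0.107 in the G418 libraries, those that end in UAG 0.202 and 0.191, and those that end in UGA 0.205 and 0.206. UAA members lay below both other groups in each G418 library, with no test of the difference. In other transcripts the G418 values were 0.0921 and 0.0858 for UAA, 0.152 and 0.146 for UAG and 0.225 and 0.215 for UGA. Among the 4-nt codons with at least 5 members, UGAU and UGAC members had the highest sums, 0.395 and 0.355 for the 6 UGAU members and 0.325 and 0.319 for the 5 UGAC members. Other transcripts had 0.2765 and 0.2604 for UGAU and 0.3204 and 0.3074 for UGAC. The 9 UAAA members had 0.0456 and 0.0264, and the 8 without MRPL52, which carries 52.6% of their expected reads, 0.0768 and 0.0487. Other UAAA transcripts had 0.0894 and 0.0847. Members lay above other transcripts in UAAG (0.1514 and 0.1202 beside 0.0562 and 0.0489) and UAGA (0.2247 and 0.2237 beside 0.1657 and 0.1567). They lay below in UAGC (0.1924 and 0.1646 beside 0.2178 and 0.2198) and UGAA (0.1355 and 0.1765 beside 0.2222 and 0.2075). The sum over the 7 UGAG members was 0.0783 and 0.0978, beside 0.179 and 0.176 for 1229 other UGAG transcripts. Of the 7, MRPL19 and MRPS25 have another termination codon than the MANE Select transcript. MRPS25 had a pooled RRTS of 0.0235 with 298 expected G418 reads. Among these 7, MRPS21 weighs most, with 1347 G418 reads expected from its CDS density and a pooled RRTS of 0.0586. MRPL14 follows with 824 expected reads and 0.112. In the UGAU sum MRPS2 weighs heavily, with 266 G418 reads and a pooled RRTS of 0.595. Sums without MRPS21 or MRPS2 were not computed. If each member had the summed RRTS of the other transcripts with its 4-nt codon, the 54 members would reach 0.189 and 0.181 in the G418 libraries, where 0.181 and 0.178 were measured. In untreated cells 0.0230 and 0.0213 would be reached, where 0.0183 and 0.0167 were measured. Of the 54 members, 23 lay above the G418 median of other transcripts with the same 4-nt codon.

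The 5 members MRPL34, MRPL35, MRPL41, MRPL55 and MRPS22 have no in-frame 3′TC in their 3′UTR, so that a ribosome that passes the NTC can run to the end of the mRNA, and for these the whole 3′UTR was counted. MRPL34, the homolog of bacterial bL34, had an RRTS of 0.0145 and 0.0119 against 0.169 and 0.142, and MRPL41 had 0.0128 and 0.0266 against 0.0822 and 0.0978. MRPL55 is given above. MRPL35 had no untreated read and 2 and 2 after G418, and MRPS22 had no untreated read and 2 and 0 after G418. Summed over the 5 members, the RRTS was 0.182 ± 0.0286 in G418-treated cells, beside 0.179 ± 0.000506 for the 49 members with a 3′TC (SD, n = 2 libraries), a difference smaller than the spread between the 2 libraries of the 5.

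Behind the first 3′TC, the read density of the members with one was 7.68% and 8.68% of the density before it in untreated cells and 3.50% and 3.48% in G418-treated cells. The reads there rose in number, from 97 and 39 to 398 and 325, and the percentages of other transcripts were 8.70% and 7.85% in untreated and 2.84% and 2.85% in G418-treated cells. These percentages cover the whole rest of each 3′UTR, past any later termination codons, with reads and lengths summed over genes. Long 3′UTRs weigh most, such as that of MRPL42 with 14863 nt. They are therefore not the share of ribosomes that passed the first 3′TC. The 3′UTR of MRPL27 as a whole had 3 and 0 untreated and 97 and 69 G418 reads, of which 29 and 22 lay before the first 3′TC.

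The CDS density of the members in untreated cells, as the mean of the 2 libraries, ran from 49.5 to 542.8 RPKM, an 11-fold range. Densities lay within 2 times the median in 47 members (87.0%), beside 41.7% of other transcripts around their own median. MRPS21, the homolog of bacterial bS21, was the densest with 603 and 483 RPKM in untreated and 465 and 406 RPKM in G418-treated cells. MRPL52 followed with 346 and 355 RPKM in untreated cells, then MRPL13 with 366 and 305, MRPL51 with 340 and 264 and MRPL20 with 287 and 273. The untreated libraries of MRPL13 overlapped with those of MRPL52 and of MRPL51, so its place between them is not resolved. The 5 least dense members were MRPL10 with 50.4 and 48.5 RPKM, MRPS5, MRPS31, MRPS30 and MRPL38, the last with 75.6 and 97.3 RPKM. MRPL10 is the homolog of bacterial uL10, which anchors the stalk of the large subunit. Both untreated values of MRPL10 lay below those of every other member.

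**Figure D3:**
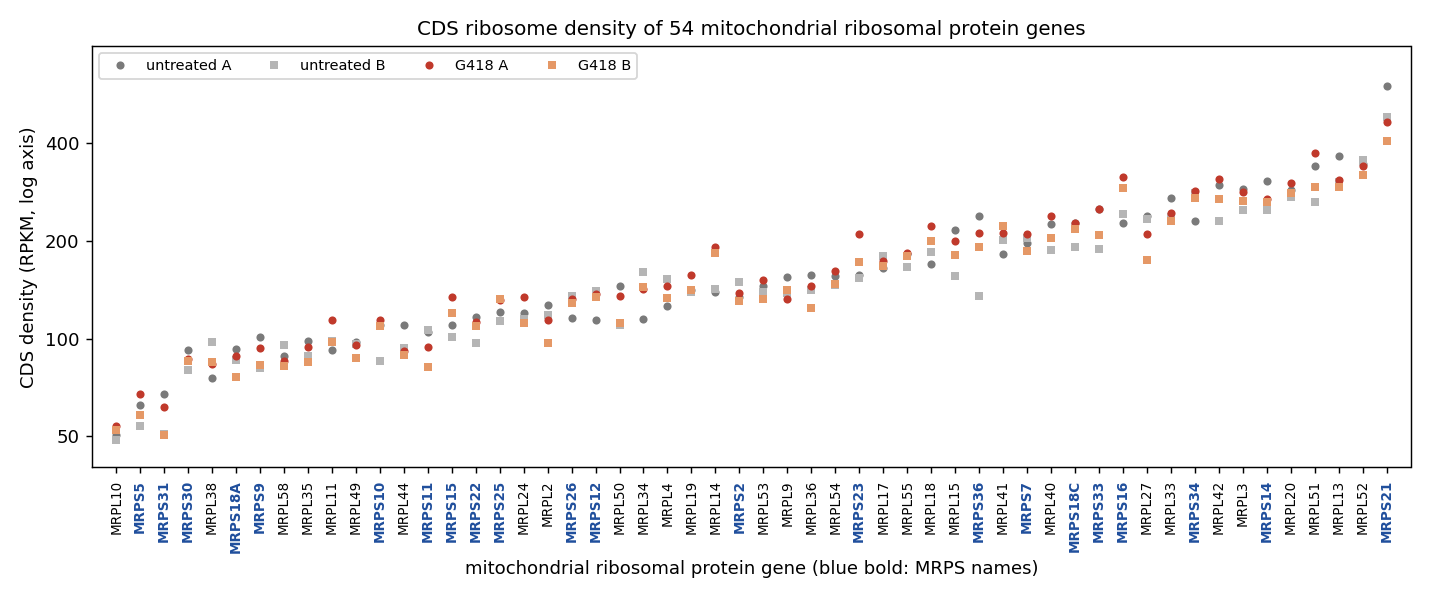
CDS density (RPKM, log axis) of the 54 genes in each of the 4 libraries, in order of the untreated mean, with MRPS names in blue. The values run from about 50 RPKM for MRPL10 to over 400 RPKM for MRPS21, and the untreated and G418 points of most genes overlap.

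CDS reads of the members changed little with G418. By edgeR's quasi-likelihood test on the deposited counts, 1 of 54 members rose and 2 fell, beside 5.31% of all 8494 transcripts tested that rose and 3.21% that fell (8.52% in either direction). The share of members that changed thus lay near the background. With library totals in place of TMM normalization, 3 members rose and 1 fell, a scaling under which the median log2 fold change of all transcripts moved from 0.00 to 0.11. The median over the members was -0.04 with TMM and 0.06 with library totals, so its sign depends on the scaling, and it lay below the median of all transcripts under either. No member changed by more than 0.40 on the log2 scale. Both G418 libraries lay above both untreated in 6 members and below both in 16, beside 26.5% and 24.8% of all transcripts.

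MRPL14 rose. Its level in CPM (CDS counts scaled to the TMM library size) was 90.9 and 101 in untreated and 119 and 123 after G418, with a log2 fold change of 0.35 ± 0.11 (SE, edgeR adjusted p = 0.0368). MRPS21 fell from 224 and 195 to 165 and 155 CPM (log2 fold change -0.40 ± 0.10, edgeR adjusted p = 0.00925). MRPL27 fell from 159 and 169 to 134 and 120 (log2 fold change -0.36 ± 0.10, edgeR adjusted p = 0.0226). The conditions did not overlap in any of these genes. None of the 3 changes passed the threshold without G418 replicate A or without G418 replicate B. MRPL14 also did not without untreated replicate A (edgeR adjusted p = 0.0937) or with DESeq2 (adjusted p = 0.224), and MRPL27 did not with library totals (edgeR adjusted p = 0.0912) or with DESeq2 (adjusted p = 0.100). GENCODE 44 lists 8 pseudogenes named after MRPS21, the most of any member, and reads that fit such copies could be split between them.

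The members' share of all CDS reads was 0.750% and 0.760% in the untreated libraries and 0.782% and 0.781% in the G418 libraries. Both G418 values were higher, 1.03 times on average. This share is on the scale of library totals, on which the median log2 fold change was 0.06 over the members and 0.11 over all transcripts. The 32 genes with a large subunit name had a median log2 fold change of -0.05 with 1 rise and 1 fall. The 22 with a small subunit name had -0.02 with no rise and 1 fall.

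**Figure D4:**
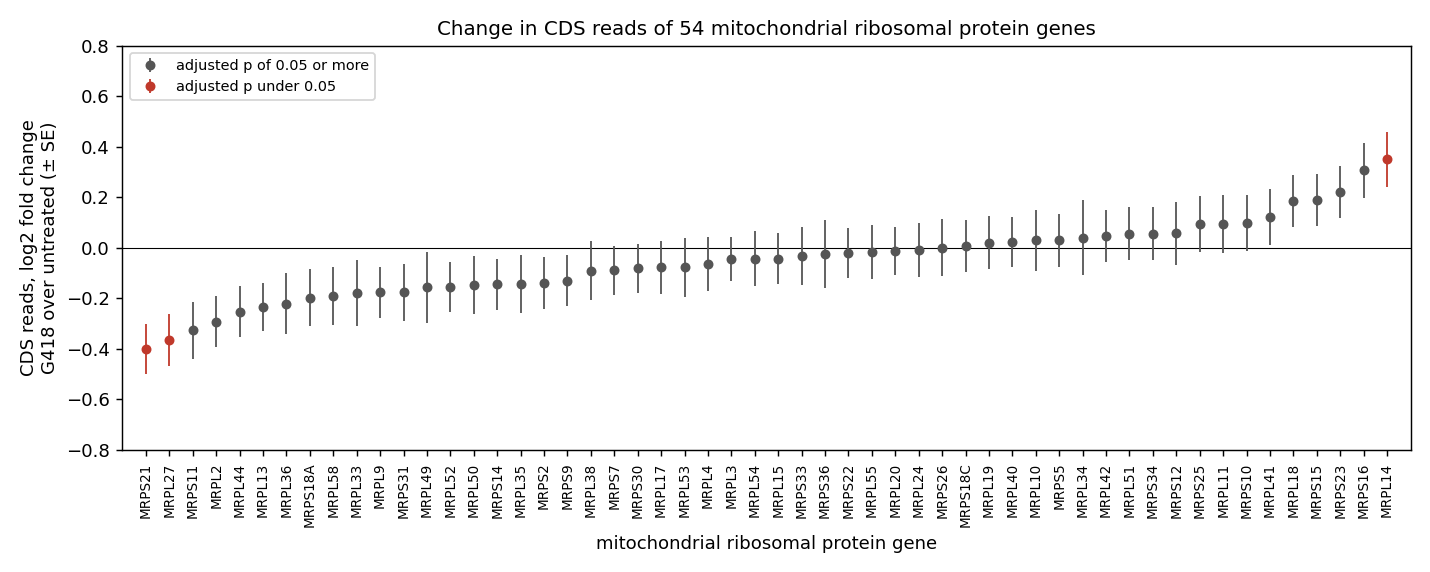
Log2 fold change of CDS reads between G418-treated and untreated cells for the 54 genes, with an SE derived from edgeR's F statistic, in order of size. Only MRPS21, MRPL27 and MRPL14 (red) passed an adjusted p of 0.05, and every estimate lies between -0.40 and 0.35.

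The 5′UTRs of the members are short, with a median of 33 counted nucleotides beside 141 in other transcripts, and 25 of the 54 members had the 20 reads over the 4 libraries and the 128 CDS reads in each condition that the test asked for. The other 29 held at most 15 reads, in 5′UTRs with a median of 14 counted nucleotides. No 5′UTR read was counted in untreated cells for 14 of these 29. Among the 25 tested members, 5′UTR reads in untreated cells ran from 0.645 per 100 CDS reads in MRPL15 to 37.3 in MRPL51. The next lowest of the 25 were MRPL40, MRPL2, MRPL38 and MRPL13. MRPL51, a mitochondria-specific large subunit protein, had 34.6 and 45.3 reads per 100 CDS reads in untreated and 35.5 and 39.4 in G418-treated cells. MRPL55 had 32.3 and 46.7 against 31.0 and 30.6, MRPS16 33.8 and 35.3 against 21.7 and 22.8, MRPS12 34.6 and 27.6 against 26.8 and 24.7, and MRPL18 31.7 and 27.99 against 22.7 and 25.1. In MRPL55, MRPS16, MRPS12 and MRPL18 both G418 values lay below both untreated values, and in MRPL51 the conditions overlapped.

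An upstream open reading frame, taken as an AUG in the 5′UTR with an in-frame UAA, UAG or UGA before the CDS on the mRNA strand, was found in 8 of 43 members whose 5′UTR length was equal in GENCODE 44 (18.6%, beside 35.3% of 6740 other transcripts). Among those with a 5′UTR of 70 to 200 nt, where all 8 lie, the shares were 57.1% of 14 members and 26.0% of 2616 other transcripts. This range was chosen after seeing the data, and its lower edge is the length of MRPL20, the shortest of the 8. The choice raises the share of the members, so no conclusion is drawn from this comparison. All 8 passed the read minimum. They held 54.8% of the 7200 5′UTR reads of the members, and their median in untreated cells was 23.25 reads per 100 CDS reads, from 2.68 in MRPS33 to 37.3 in MRPL51. The 10 tested members that were searched and had none had a median of 3.55, from 0.995 in MRPL2 to 36.4 in MRPL55. The ranges overlap. The first AUG, in capitals between 10 bases before and 7 after it, is shown for 5 of the 8 to set the one with the fewest 5′UTR reads beside those with more.
MRPS33: attgttcttgATGaactgaa
MRPL20: cccgggcaagATGgcagcgg
MRPL18: ctgactttatATGgctgctc
MRPS12: tgttagcagcATGagggcct
MRPL51: aaggcccaagATGgctgtct
The frame is 9 nt long in MRPS33, termination codon included, 30 nt in MRPL20 and MRPL51, 36 nt in MRPL18 and 18 nt in MRPS12. MRPS33 has 4 such frames and MRPS15 has 2.

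With G418, 5′UTR reads per CDS read did not change in any member by edgeR's quasi-likelihood test, with 0 of 25 past the threshold in either direction beside 2.29% of 3629 transcripts that fell and 0.193% that rose (2.48% in either direction). At an unadjusted p under 0.05, 5 of the 25 members had lower values and none higher, beside 12.2% and 2.56% of all transcripts tested, and DESeq2 with the same offsets also gave 0. Both G418 libraries were below both untreated in 14 members and above in 2, beside 31.8% and 13.2% of all transcripts tested. The median log2 fold change was -0.39 over the 25 members and -0.17 over all transcripts tested. The smallest adjusted p was that of MRPS16 (log2 fold change -0.63 ± 0.22, SE, edgeR adjusted p = 0.114). MRPL54 had the lowest estimate, -1.88 ± 0.74 (edgeR adjusted p = 0.179), from 10 and 5 untreated and 2 and 3 G418 reads. With the deposited counts it had 19 reads, under the minimum of 20, and was not tested. Summed over the members, 5.39 and 6.03 reads per 100 CDS reads were counted in untreated and 4.90 and 5.13 in G418-treated cells, and the conditions did not overlap. Over 8514 other transcripts the sum was 4.83 and 5.57 in untreated and 4.71 and 4.84 in G418-treated cells. The ratio of the means was 0.879 for the members and 0.918 for the others, and this difference was not tested.

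**Figure D5:**
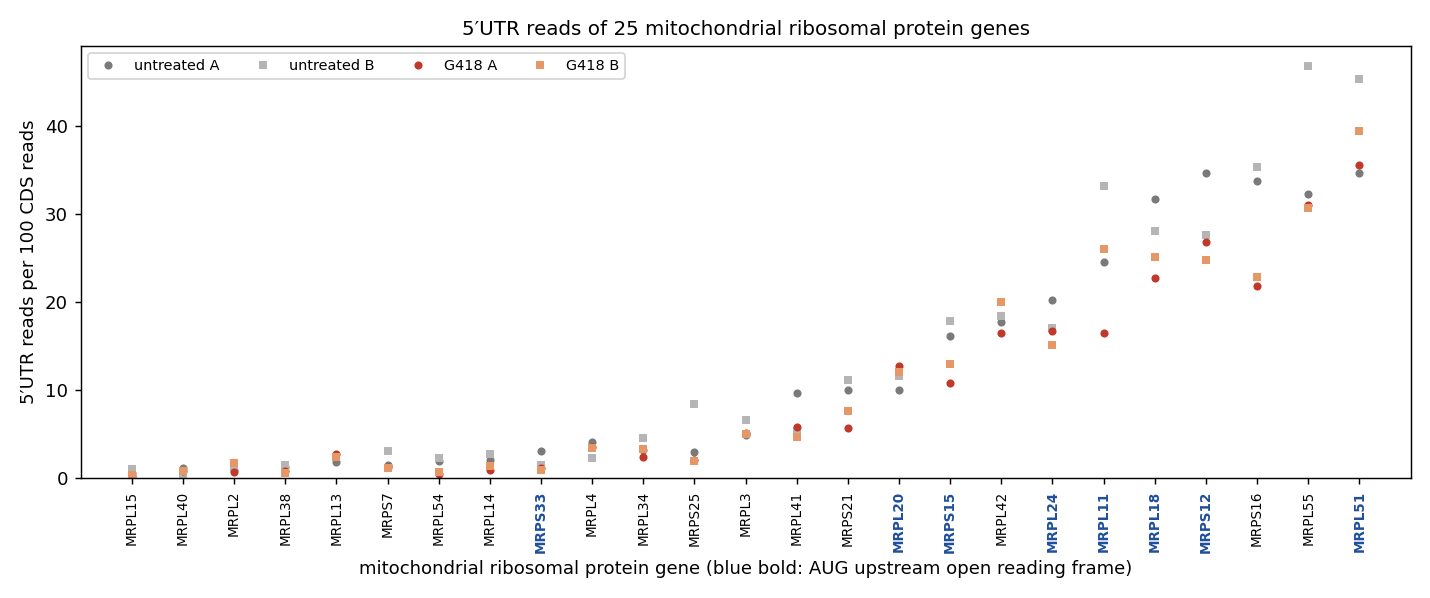
5′UTR reads per 100 CDS reads (linear axis from 0) in each of the 4 libraries for the 25 genes past the read minimum, in order of the untreated value. Names in blue mark the 8 genes with an AUG upstream open reading frame, 5 of which are among the 8 with the most 5′UTR reads, and no gene differed between conditions by the adjusted test.

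Some members do not sit where their name places them. MRPS18A and MRPS18C descend from the same bacterial protein as MRPS18B, which was not listed, and MRPS18A is found in the large subunit. MRPS18A ends in UGAC and its RRTS went from 0.0255 and 0 to 0.182 and 0.254 (log2 fold change 3.54 ± 0.41, SE, edgeR adjusted p = 9.69e-17). MRPS18C ends in UAAA and had 0.0989 and 0.0895 against 0.105 and 0.1997, from 3 and 1 and 3 and 5 reads, and did not pass the test (edgeR adjusted p = 0.539). The CDS of MRPS18C was read at 227 and 192 RPKM in untreated cells and that of MRPS18A at 93.1 and 85.7 RPKM. MRPS30, also a large subunit protein, had 1 read before its first 3′TC in 1 G418 library and none elsewhere, in a counted region of 12 nt. MRPS36 is now known as a subunit of the 2-oxoglutarate dehydrogenase complex. Its RRTS was 0.0173 and 0 against 0.251 and 0.101, and its CDS density of 239 and 135 RPKM in untreated cells had a wider spread than its difference to G418 (212 and 192 RPKM).

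Genes of mitochondrial translation outside the selected names were counted in the same fits. A list of 6 mitochondrial ribosomal proteins under other names held ICT1, another name of MRPL58, which was counted with the members. The other 5 were all listed, none changed in CDS reads and 3 of the 4 tested for readthrough rose. Among them DAP3, a small subunit protein, had an RRTS of 0.0133 and 0.0169 in untreated and 0.203 and 0.174 in G418-treated cells. Of 15 mitochondrial translation factors, 10 were listed, none changed in CDS reads and all 4 tested for readthrough rose. TUFM, the mitochondrial elongation factor Tu, rose from 0.0359 and 0 to 0.194 and 0.178, and OXA1L, the insertase that receives the products of mitochondrial ribosomes, from 0.0180 and 0.0492 to 0.642 and 0.555. Of 30 assembly factors and rRNA enzymes, 26 were listed, none changed in CDS reads and 10 of 12 tested rose in readthrough, the exceptions being MRM3 and MTERF4. Over all transcripts tested, 82.6% rose in readthrough and 8.52% changed in CDS reads. The minimum of 10 reads, met mostly by G418 reads, also chose which genes of these lists were tested for readthrough.

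Of 64 cytosolic ribosomal proteins listed, 21 fell in CDS reads and none rose, with a median log2 fold change of -0.20, and 16 of 49 tested fell in 5′UTR reads per CDS read. Over all transcripts tested, 3.21% fell and 5.31% rose in CDS reads, and 2.29% fell in 5′UTR reads per CDS read. The share of all CDS reads on the cytosolic ribosomal proteins went from 7.02% and 7.04% to 6.63% and 6.63%. Their summed RRTS in G418-treated cells was 0.0646 and 0.0578, below that of the members in each library. Of 58 nuclear-encoded subunits of the respiratory chain and ATP synthase, 1 rose and 12 fell in CDS reads, and their summed RRTS was 0.133 and 0.128. The differences between these lists were not tested.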

How the data were processed

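Ribosome profiling of HEK293T cells, untreated or given G418, was available as 1 deposited table per library. The authors removed duplicates by molecular identifiers, aligned reads with STAR to non-coding RNA and then to hg38 with GENCODE 30, used full-length fragments of 28 to 35 nt, allowed up to 200 positions with 1 primary alignment kept, and tallied 1 transcript per gene. Reads that fit a pseudogene copy can therefore be placed on either, and 24 of the 54 members have a pseudogene named after them in GENCODE 44. Per the labels, CASAVA 1.8 was also used. The deposited columns hold counts, RPM, RPKM densities and the RRTS as a ratio, with the first 6 nt behind the NTC left out of 3′UTR densities by the authors. A deposited 5′UTR density column, a score whose scale is not given in the sources used here, was not used. The lowest CDS density listed was 1.00 RPKM in each library.

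RPM values were whole multiples of 1 read, within 0.01 of a read, for 100% of values in each library, so reads were recovered from them for the 5′UTR and for the region before the first 3′TC. The deposited CDS count was 1 below the recovered one for 100% of members in both G418 libraries and 0% in both untreated ones. In G418 A all 732 transcripts with 1 recovered 5′UTR read had a deposited count of 0. CDS reads were tested on the deposited counts with filterByExpr and TMM, and the other regions on recovered reads with the CDS reads plus 0.5 as offset, by edgeR 4.0.16 in R 4.3.3 with Benjamini-Hochberg adjustment over all transcripts tested and a threshold of 0.05. For RRTS, transcripts needed 128 mRNA reads per condition and 10 reads, summed over libraries, before the 3′TC. Summed values are ratios of summed observed reads to the reads that the CDS density would give. Intervals are exact, at 95%, and cover counting error only. Limits and folds at a count of 0 take 3 reads in its place. Those folds leave out the counting error of the G418 reads and are not 95% limits. DESeq2 1.42.0 and limma 3.58.1 served as alternatives, and further values were computed with Python 3.11.15, numpy 2.4.6, pandas 2.3.3 and scipy 1.17.1, with matplotlib 3.10.9 for figures. Each SE given for an edgeR fit is the absolute log2 fold change divided by the square root of the test's F statistic. The fits were also run on simulated counts with 200 changed transcripts and the same dispersion for all. That setting differs from the RRTS data, where most tested transcripts rose, and no conclusion is drawn from it.

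The members and the gene lists were chosen with earlier results of these data known. Named genes were those with the largest changes past the threshold (up to 10 in each direction), the 5 highest and lowest by CDS density, by 5′UTR reads per CDS read and by RRTS after G418, members without an in-frame 3′TC, the MRPS18 paralogs, MRPS30 and MRPS36. MRPL54, MRPL33, MRPL15, MRPS25, MRPS31, MRPS18C and MRPL18 were also named after their values were seen. The comparison with MANE Select termination codons was added after seeing the data.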

Additional observations from a re-analysis of the deposited data

How the results depend on the processing

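The count of 39 members with higher RRTS of 43 tested was 31 of 32 with a minimum of 20 reads, 31 of 43 with DESeq2, 33 with limma and a pseudocount of 0.01, 20 with limma and a pseudocount of 0.001, 42 of 47 over the whole 3′UTR, and 29 to 38 with 1 library left out. Among members with the MANE Select termination codon, an alternative chosen after seeing the data, it was 38 of 41. Of the 39, 19 were lost with the smaller pseudocount, 8 with DESeq2, 1 to 10 with 1 library left out (10 without untreated A) and 0 with the minimum of 20 reads. MRPL52 was lost under 9 alternatives, MRPL13 under 7, MRPL15 and MRPL41 under 6, and MRPL24 and MRPS12 under 5. No member had lower RRTS past the threshold under any of these. For CDS reads, 3 members passed the threshold, 1 did with DESeq2, and 0 to 19 did with 1 library left out: 10 without untreated A, 19 without untreated B, 0 without G418 A and 0 without G418 B. Over all transcripts CDS calls were 451 higher and 273 lower, 109 and 134 with DESeq2, and 887 and 120 with library totals. For 5′UTR reads no member passed, and 0 to 3 did with 1 library left out (3 without untreated A, 1 without untreated B). Over all transcripts 83 were lower and 7 higher, and 40 and 0 with DESeq2, 43 and 5 with the interaction model. RRTS calls over all transcripts were 2336, and 1372 with DESeq2, 1142 with the smaller pseudocount. A library left alone in its group was assumed to vary like the other group.

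With 1 library left out, the log2 fold change turned sign for MRPL51 5′UTR reads (-0.28 to 0.11, above 0 without untreated B), for MRPS31 RRTS (-0.36 to 0.21, above 0 without untreated A, at 0.0603, and without G418 A) and for MRPS25 RRTS (-0.43 to 0.80, below 0 without untreated A), none of them past the threshold. As medians over members, the G418 over untreated ratio was 1.08 for the CDS share (1.035 as a sum), 0.621 for 5′UTR reads (0.879) and 24.6 for RRTS (10.3). The median RRTS was 0.0133 in untreated A and 0 in untreated B, where 29 of the 54 members had no read before the first 3′TC. The ratio of 24.6 therefore rests on a median of 0 and is not the rise of a typical member. The cause of the other differences between medians and sums was not tested.

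The letters A and B give only 2 pairs and the labels do not say that a letter marks a shared batch. Deviations of same-lettered libraries correlated at 0.136 over 8494 transcripts. With the replicate block, 6 members passed for CDS reads (2 higher, 4 lower), 33 for RRTS (6 lost) and 0 for 5′UTR reads, and over all transcripts 618 were higher and 452 lower in CDS reads. The shallowest library, untreated B, and counts of 0 to 3 reads limit untreated RRTS values of single members.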
